A study of Mus musculus with 12 samples.

Results

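The neuronal nicotinic acetylcholine receptor subunits are a family of 9 genes, Chrna2, Chrna3, Chrna4, Chrna5, Chrna6, Chrna7, Chrnb2, Chrnb3 and Chrnb4, taken by gene symbol from the 38887 genes of the deposited table. The family was taken up because Chrna6 and Chrnb3 were already known to be among the genes with the lowest Opn4 minus HB9 difference in uninjured cells, so that difference is described here without a test. RNA was sequenced from fluorescent mouse retinal ganglion cells that had been picked by pipette, in 12 libraries that form 4 groups of 3. Opn4 cells, the intrinsically photosensitive ganglion cells (ipRGCs) that carry melanopsin, came from Opn4CreERT/+;R26-tdTomatof/f mice after optic nerve crush (Opn4 crush) or sham surgery (Opn4 sham). HB9 cells, ON-OFF direction-selective ganglion cells (ooDSGCs), came from HB9:GFP mice after crush (HB9 crush) or sham surgery (HB9 sham). Both lines received tamoxifen at 0.124 mg per g of body weight on 5 days from postnatal day 21, surgery was at postnatal day 42, and cells were collected 3 days later. A library held 30 cells, pooled from 3 animals with 10 cells each. The Cre allele at Opn4 and the tdTomato reporter belong to the Opn4 line alone, and the GFP transgene to the HB9 line alone, so line and cell class cannot be told apart. The crush effect is measured within a line.

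Neuronal nicotinic receptors are cation channels that open when acetylcholine binds, and each channel is a ring of subunits. The α2, α3, α4 and α6 subunits bind acetylcholine together with β2 or β4, α5 and β3 join such rings as accessory subunits, and α7 can form a channel by itself. In the retina acetylcholine is released by starburst amacrine cells, which contact direction-selective ganglion cells. Receptors with α6 and β3 are known from retinal ganglion cells and their axon terminals, and from midbrain dopamine neurons. Receptors with β2 are required for the spontaneous waves of activity in the developing retina.

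The values are RPKM (reads scaled by the length of the gene and by the total of the library), as the authors deposited them. Levels of different subunits can be set side by side only as far as the gene lengths used are right. Lengths worked out from the values differed from the summed exons of the GENCODE M21 annotation. They were 2091 against 4505 bp for Chrna7, 3123 against 5265 bp for Chrna3 and 5384 against 8380 bp for Chrnb2. For Chrna6 and Chrna4 they were closer, at 2904 against 2906 bp and 4938 against 5022 bp. Library totals used for scaling, worked out from the steps between low values, ran from 15104446 to 28195798 reads. The labelled cell classes carried their markers: Opn4, the melanopsin gene, had 1313 to 1433 RPKM in Opn4 crush and 1255 to 1773 RPKM in Opn4 sham libraries, against 1.82 to 24.3 RPKM in HB9 crush and 0.158 to 20.2 RPKM in HB9 sham libraries. Mnx1, the gene also called HB9, had 1.13 to 3.06 RPKM in HB9 crush and 20.9 to 41.7 RPKM in HB9 sham libraries, and fell by 3.30 on the log2 scale (SE 0.43, limma adjusted p = 0.000471). Its highest value in any Opn4 library was 0.144 RPKM. Replicates of the Opn4 groups lay further apart than those of the HB9 groups, with median within-group SDs of 0.51 in Opn4 crush, 0.47 in Opn4 sham, 0.34 in HB9 crush and 0.33 in HB9 sham cells (log2 scale). Opn4 crush replicate 1 and Opn4 sham replicate 1 stood apart from the other libraries on the third principal component, at 61.9 and -83.8, while the other 10 libraries lay between them. Rod genes were present in every library. The summed RPKM of 14 rod markers ran from 1141 to 3194 in Opn4 crush, 771 to 2041 in Opn4 sham, 583 to 969 in HB9 crush and 307 to 1015 in HB9 sham libraries. In pools of this kind, fewer cells of a type and less RNA per cell cannot be told apart.

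**Figure D1:**
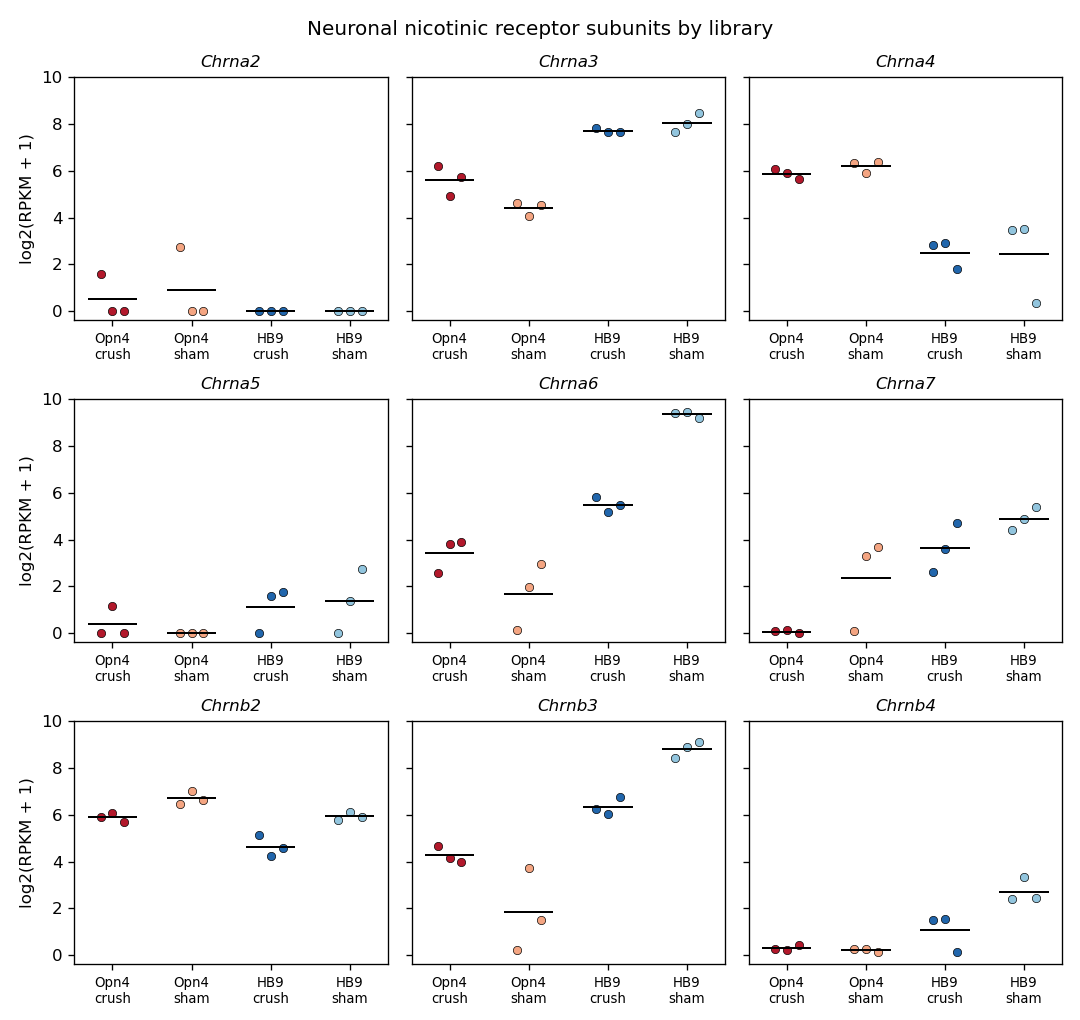
RPKM of the 9 subunits in each library, as log2(RPKM + 1), with a panel per gene, a point per library and a bar at the group mean. Chrna6 and Chrnb3 reached their highest values in HB9 sham libraries, at 593 to 693 and 341 to 549 RPKM, while Chrna4 was highest in the 6 Opn4 libraries, at 49.2 to 81.0 RPKM.

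Promoter sequence was taken from RefSeq (GRCm38.p6, the build also called mm10) for 6 of the 9 genes, Chrna3, Chrna4, Chrna5, Chrna7, Chrnb2 and Chrnb4. Sequence of Chrna2, Chrna6 and Chrnb3 was not used here. The 250 bases before the start are printed for Chrna4 and Chrnb2, which were higher in Opn4 than in HB9 cells after crush, and for Chrna3, which was lower. Each reads 5′ to 3′ on the strand of the gene, and capitals mark the GC box GGGCGG or its reverse complement. All 3 genes lie on the minus strand, at chr2:181039178-181039427 for Chrna4, chr3:89764633-89764882 for Chrnb2 and chr9:55026563-55026812 for Chrna3. The Chrna4 window lies inside the deposited span of that gene, since the RefSeq start is downstream of the one deposited.
Chrna4: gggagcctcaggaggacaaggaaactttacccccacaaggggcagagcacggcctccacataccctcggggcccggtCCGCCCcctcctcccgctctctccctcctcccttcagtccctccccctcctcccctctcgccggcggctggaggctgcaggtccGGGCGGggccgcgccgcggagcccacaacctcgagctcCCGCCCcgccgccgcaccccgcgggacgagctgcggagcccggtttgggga
Chrnb2: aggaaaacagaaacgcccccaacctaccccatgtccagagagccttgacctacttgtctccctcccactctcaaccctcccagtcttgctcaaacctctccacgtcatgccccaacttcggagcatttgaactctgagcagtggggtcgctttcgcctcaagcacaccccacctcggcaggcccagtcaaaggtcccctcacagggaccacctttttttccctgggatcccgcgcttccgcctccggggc
Chrna3: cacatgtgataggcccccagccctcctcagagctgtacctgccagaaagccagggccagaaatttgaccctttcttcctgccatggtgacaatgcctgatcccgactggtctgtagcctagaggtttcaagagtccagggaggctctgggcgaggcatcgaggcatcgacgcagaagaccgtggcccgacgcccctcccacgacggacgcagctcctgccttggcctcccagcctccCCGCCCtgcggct
The Chrna4 window held 3 GC boxes and was 74.4% G and C. Chrna3 had 1 GC box and 63.2% G and C, and Chrnb2 had no GC box and 59.6% G and C. Over 32851 RefSeq windows of the same length, 32.7% held a GC box and the median G and C content was 52.4%. Of the other motifs searched on both strands and counted separately, E-boxes (CANNTG) numbered 2 in Chrna3 and 1 in Chrnb2, and occurred in 66.2% of all windows. The cAMP response element core TGACGT occurred in Chrnb2, at 1 place, and in 6.47% of all windows. The homeodomain core TAATTA and the AP-1 site TGANTCA, present in 4.84% and 6.75% of all windows, were in none of the 7 windows of the 6 genes. These matches describe the letters of the windows only.

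Chrna6 and Chrnb3, which encode the α6 subunit and its frequent partner β3, were the most abundant members of the family in uninjured HB9 cells and were far lower after crush. Chrna6 had 54.8, 35.2 and 43.0 RPKM in HB9 crush libraries, against 686, 693 and 593 RPKM in HB9 sham libraries. The groups did not overlap, and every crushed library lay more than an order of magnitude below every sham library. The means were 44.3 ± 9.87 RPKM after crush and 658 ± 56.1 RPKM after sham (SD, n = 3 each), a ratio of 0.0674. Chrna6 fell by 3.88 on the log2(RPKM + 1) scale (SE 0.57, 95% interval -5.10 to -2.66, limma adjusted p = 0.00114), the 4th lowest change of 18269 genes tested. The call held in all 15 alternative settings, with adjusted p between 1.12e-05 and 0.0333. The sham libraries used here also entered the class difference for which Chrna6 was known. Its rank and p-values in this comparison are therefore not independent support.

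Chrnb3 had 74.7, 65.0 and 106 RPKM in HB9 crush libraries, against 341, 474 and 549 RPKM in HB9 sham libraries. All crushed libraries again lay below all sham libraries. It fell by 2.46 on the log2 scale (SE 0.63, 95% interval -3.83 to -1.09, limma adjusted p = 0.0353). The call was lost without any 1 of the 6 HB9 libraries (adjusted p 0.0711 to 0.126), at a pseudocount of 0.1 (0.186), with no filter on low values (0.0994) and with rod expression as a covariate (0.0733), and over all 15 settings the adjusted p ran from 0.000532 to 0.186 while the change stayed between -2.66 and -2.31. The sham libraries in this comparison also entered the difference for which Chrna6 and Chrnb3 were known, so their crush effects in HB9 cells are not independent of that choice.

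In Opn4 cells the same 2 genes were low, and higher after crush than after sham in their means. Chrna6 had 4.85, 12.9 and 13.8 RPKM in Opn4 crush libraries, against 0.105, 2.94 and 6.73 RPKM in Opn4 sham libraries, and the groups overlapped. The log2 change was 1.72 (SE 0.57, limma adjusted p = 0.185). Chrnb3 had 24.7, 16.8 and 15 RPKM in Opn4 crush libraries, against 0.171, 12.3 and 1.86 RPKM in Opn4 sham libraries. These groups did not overlap, but the sham libraries were scattered, and the log2 change of 2.46 (SE 0.63) missed the threshold (limma adjusted p = 0.0864). Without Opn4 sham replicate 2, the highest of its group, the change was 3.41 and passed it (adjusted p = 0.00214), within a range of 0.00214 to 0.523 over 16 settings.

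The difference in crush effect, Opn4 minus HB9, was 5.60 on the log2 scale for Chrna6 (SE 0.80) and 4.92 for Chrnb3 (SE 0.89). Each equals the class difference after crush minus the class difference after sham, for which the pair was known, so these values are given as a description without a test. Of the other 6 members tested, none passed in this comparison by limma, with adjusted p from 0.123 for Chrna3 to 0.916 for Chrna4, while 0.816% of all genes passed, 0.29% as higher and 0.525% as lower (53 and 96 genes, or 78 and 93 with quantile normalization).

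After crush, where the libraries are not those in which the pair had been noticed, both genes were still lower in Opn4 than in HB9 cells. Chrna6 averaged 10.5 ± 4.93 RPKM in Opn4 crush and 44.3 ± 9.87 RPKM in HB9 crush cells, and Chrnb3 averaged 18.8 ± 5.11 RPKM in Opn4 crush and 82.1 ± 21.7 RPKM in HB9 crush cells (SD, n = 3 each). For neither gene did the classes overlap. The log2 differences were -2.07 for Chrna6 (SE 0.57, limma adjusted p = 0.03) and -2.06 for Chrnb3 (SE 0.63, adjusted p = 0.0494). The Chrna6 call held in 8 of 16 settings (adjusted p 0.00484 to 0.404) and was lost without Opn4 crush replicate 1 or any 1 HB9 crush library, and the Chrnb3 call held in 6 of 16 (adjusted p 0.00778 to 0.295) and was lost without any 1 of the 6 crush libraries. With rod expression as a covariate neither gene passed, at -1.05 for Chrna6 (limma adjusted p = 0.404) and -1.72 for Chrnb3 (adjusted p = 0.295). After sham the differences were -7.67 for Chrna6 (SE 0.57) and -6.98 for Chrnb3 (SE 0.63), with means of 3.26 ± 3.32 RPKM in Opn4 sham against 658 ± 56.1 RPKM in HB9 sham cells for Chrna6, and 4.77 ± 6.57 against 455 ± 105 RPKM for Chrnb3.

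**Figure D2:**
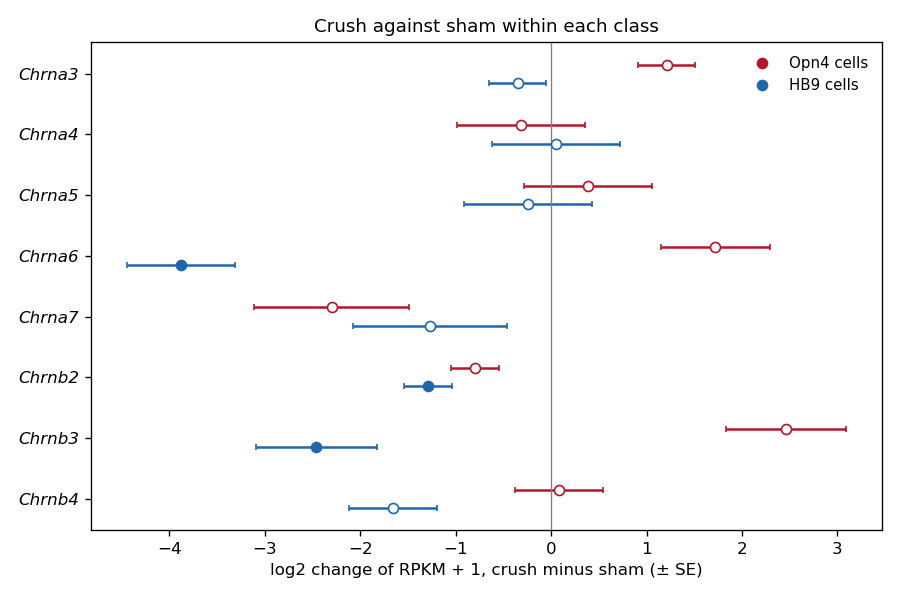
Crush minus sham difference of each tested subunit on the log2(RPKM + 1) scale in Opn4 and HB9 cells, with bars of ± 1 limma standard error. Filled points passed an adjusted p of 0.05 and open points did not. Chrna6, Chrnb3 and Chrnb2 passed in HB9 cells, at -3.88, -2.46 and -1.29, and no subunit passed in Opn4 cells. Chrna6 and Chrnb3 were already known for a class difference that used the same sham libraries.

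Chrna3, Chrna5 and Chrnb4 encode α3, the accessory α5 and β4, the subunits of the classical ganglionic receptor of the autonomic nervous system. Their genes form a cluster on chromosome 9, but their levels were far apart. Chrna3 was abundant in HB9 cells, at 223, 198 and 200 RPKM in HB9 crush libraries and 203, 259 and 352 RPKM in HB9 sham libraries. These groups overlapped, and the log2 change of -0.35 (SE 0.30, 95% interval -1 to 0.29) did not pass the threshold (limma adjusted p = 0.609). With Chrna6 and Chrnb3 down, Chrna3 had the highest level of the family in crushed HB9 cells. In Opn4 cells Chrna3 had 72.0, 29.4 and 52.6 RPKM in crush libraries, against 23.7, 15.9 and 22.1 RPKM in sham libraries. Every crush library was above every sham library, and the log2 change was 1.21 (SE 0.30, limma adjusted p = 0.0755). Without Opn4 crush replicate 2, the lowest of its group, it was 1.56 and passed (adjusted p = 0.0161, range 0.0161 to 0.456 over 16 settings), as did the difference in crush effect between classes (1.91, adjusted p = 0.0282, range 0.0282 to 0.273 over 21 settings).

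Between the classes after crush, Chrna3 was lower in Opn4 cells, with means of 51.3 ± 21.3 RPKM in Opn4 crush and 207 ± 14.0 RPKM in HB9 crush cells (SD, n = 3 each). The classes did not overlap, the log2 difference was -2.08 (SE 0.30, limma adjusted p = 0.000692), and all 16 alternative settings kept the call. Uninjured Opn4 cells averaged 20.6 ± 4.13 RPKM, against 271 ± 74.8 RPKM in uninjured HB9 cells, which is -3.64 on the log2 scale.

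Chrnb4 was at the edge of detection in Opn4 cells, with 0.158 to 0.325 RPKM in crush and 0.107 to 0.190 RPKM in sham libraries. In HB9 cells it had 1.85, 1.88 and 0.0867 RPKM in crush libraries, against 4.19, 9.06 and 4.43 RPKM in sham libraries. These groups did not overlap, and the log2 change of -1.66 (SE 0.46) lay just outside the threshold (limma adjusted p = 0.051). It passed with quantile normalization (-1.84, adjusted p = 0.0307) and with weighted libraries (-1.68, adjusted p = 0.00994), within a range of 0.00994 to 0.201 over 14 settings. Chrnb4 came past the filter on low values only because of the HB9 sham group, where it was highest. The p-values of its fall are therefore not independent support. Chrna5 was listed at 0 in all 3 Opn4 sham libraries, in 2 of 3 Opn4 crush libraries and in 1 of 3 libraries of each HB9 group, and its highest value was 5.59 RPKM, in HB9 sham replicate 3. It passed no test.

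Chrna4 and Chrnb2 encode α4 and β2, which together form the most widespread nicotinic receptor of the brain. They were the 2 leading members in uninjured Opn4 cells. Chrna4 had 65.7, 59.3 and 49.2 RPKM in Opn4 crush libraries and 79.0, 59.0 and 81.0 RPKM in Opn4 sham libraries. The HB9 libraries were all far lower, at 6.03, 6.49 and 2.46 RPKM after crush and 10.1, 10.5 and 0.285 RPKM after sham. Crush made no difference past the threshold in either class, with log2 changes of -0.32 in Opn4 cells (SE 0.67, 95% interval -1.77 to 1.13, limma adjusted p = 0.872) and 0.05 in HB9 cells (SE 0.67, 95% interval -1.4 to 1.5, adjusted p = 0.989). The sign in HB9 cells depended on the setting, and without HB9 sham replicate 3, at 0.285 RPKM, the change was -1 on the log2 scale. After crush Chrna4 was higher in Opn4 than in HB9 cells by 3.37 on the log2 scale (SE 0.67, limma adjusted p = 0.00571). With rod expression as a covariate, this difference was 2.43 and did not pass (adjusted p = 0.123, range 0.00394 to 0.123 over 16 settings). The difference after sham was 3.74 (SE 0.67).

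Chrnb2 was lower after crush in both classes in its means. In HB9 cells it had 34.4, 17.7 and 22.6 RPKM in crush libraries, against 54.2, 67.4 and 59.1 RPKM in sham libraries. The groups did not overlap, and Chrnb2 fell by 1.29 on the log2 scale (SE 0.25, 95% interval -1.84 to -0.74, limma adjusted p = 0.00832), a call kept in all 15 settings. In Opn4 cells it had 59.6, 67.0 and 50.2 RPKM in crush libraries, against 85.5, 128 and 99.0 RPKM in sham libraries. These groups did not overlap either, but the log2 change of -0.80 (SE 0.25) did not pass (limma adjusted p = 0.172), nor did the difference in crush effect between classes (0.49, SE 0.36, 95% interval -0.29 to 1.27, adjusted p = 0.635). After crush Chrnb2 was higher in Opn4 than in HB9 cells, at 58.9 ± 8.43 against 24.9 ± 8.58 RPKM (SD, n = 3 each), a log2 difference of 1.25 (SE 0.25, limma adjusted p = 0.00661). That call was lost with the rod covariate (1.23, adjusted p = 0.0691, range 0.00412 to 0.0691 over 16 settings). After sham the means were 104 ± 21.9 RPKM in Opn4 and 60.2 ± 6.67 RPKM in HB9 cells. The ratio of Chrna4 to Chrnb2 RPKM averaged 0.989 ± 0.109 in Opn4 crush, 0.734 ± 0.243 in Opn4 sham, 0.217 ± 0.134 in HB9 crush and 0.116 ± 0.0973 in HB9 sham libraries (SD, n = 3 each).

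Chrna7, the gene of the self-sufficient α7 subunit, was near 0 in crushed Opn4 cells. It had 0.0552, 0.0792 and 0 RPKM in Opn4 crush libraries, which rest on 2, 3 and 0 reads, against 0.0626, 8.80 and 11.9 RPKM in Opn4 sham libraries. Opn4 sham replicate 1 lay with the crushed libraries, and the log2 change of -2.30 (SE 0.81) did not pass the threshold (limma adjusted p = 0.217). Without that library it was -3.43 and passed (adjusted p = 0.0186), and without both Opn4 replicate 1 libraries it was -3.44 (adjusted p = 0.0322, range 0.0186 to 0.571 over 16 settings). In HB9 cells Chrna7 had 5.04, 11.1 and 24.9 RPKM in crush libraries and 20.3, 28.2 and 41.2 RPKM in sham libraries. The groups overlapped, and the log2 change was -1.27 (SE 0.81, 95% interval -3.02 to 0.49, limma adjusted p = 0.468). After crush Chrna7 was lower in Opn4 than in HB9 cells by a log2 difference of -3.57 (SE 0.81, limma adjusted p = 0.0125). This call was lost without HB9 crush replicate 3, the highest of its group (-3.03, adjusted p = 0.062), and with the rod covariate (-2.11, adjusted p = 0.227, range 0.00264 to 0.227 over 16 settings).

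Chrna2, which encodes α2, a subunit of restricted brain expression, was above 0 in 2 libraries, Opn4 crush replicate 1 at 2.00 RPKM and Opn4 sham replicate 1 at 5.67 RPKM. Those are the 2 libraries that stood apart on the third component. It did not reach 1 RPKM in 3 libraries and was not tested.

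Over the 8 members tested, 3 fell and none rose in HB9 cells after crush. Chrna6 and Chrnb3 were 2 of the 3, and the HB9 sham values used here entered the difference for which they were known. The count and the member median below are therefore not independent of that choice. Chrnb2 was the only other member to fall. Of all 18269 genes tested, 6.42% passed in that comparison, 3.84% as higher and 2.57% as lower. With quantile normalization that split was 600 higher and 605 lower genes, against 702 and 470 on the deposited scale. The median log2 change was -1.28 over the 8 members and 0.11 over all genes. In Opn4 cells none of the 8 passed by limma, where 1.11% of all genes passed (0.69% as higher and 0.421% as lower), 5 of the 8 had an unadjusted p under 0.05, as did 2619 of all 18269 genes, and limma voom on recovered reads also called none. Opn4 against HB9 after crush, 2 members were higher and 4 lower, where 12.7% of all genes passed, 5.12% as higher and 7.60% as lower. The member and all-gene medians there were -1.41 and -0.12. Quantile normalization brought the all-gene medians to -0.01 in the HB9 crush effect and in the class difference after crush, and none of the calls made on members was lost to it. With rod expression as a covariate, Chrna3 alone kept its call between classes after crush (limma adjusted p = 0.0145). The calls of Chrna4, Chrna6, Chrna7, Chrnb2 and Chrnb3 in that comparison were lost.

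**Figure D3:**
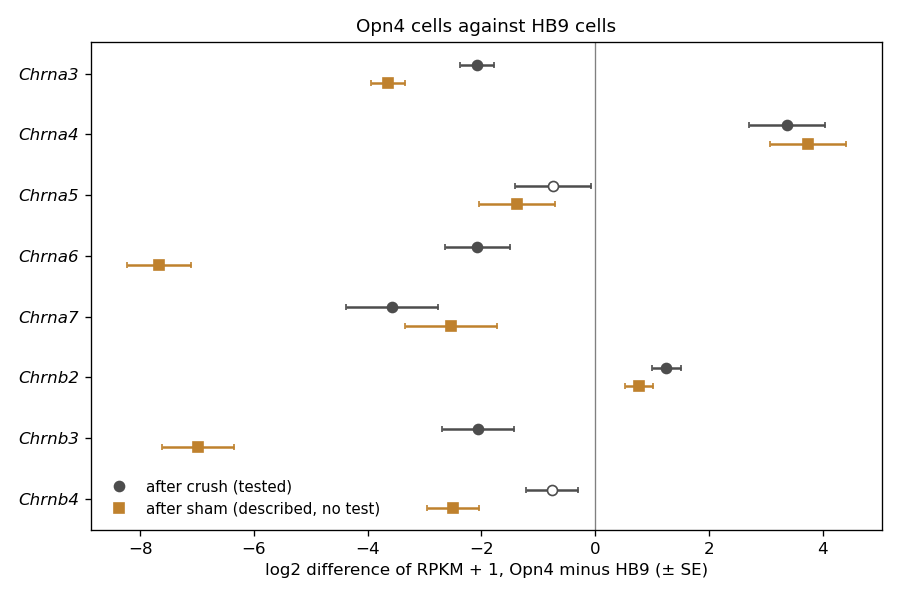
Opn4 minus HB9 difference of each tested subunit on the log2(RPKM + 1) scale after crush (circles) and after sham (squares, described without a test), with bars of ± 1 limma standard error. Filled circles passed an adjusted p of 0.05 and open circles did not; Chrna4 and Chrnb2 lie right of 0 and the other subunits left of it, and the Chrna6 difference is -2.07 after crush and -7.67 after sham.

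The make-up of the family is described here by class and by injury without a test. Chrna6 and Chrnb3 weigh most in HB9 sham cells, and their class difference after sham was known beforehand. Shares of a sum depend on each other, so a gene can gain share without a change in its own level. Summed over the 9 genes, the family had 380 ± 36.6 RPKM in HB9 crush and 1489 ± 150 RPKM in HB9 sham cells, while Opn4 cells had 199 ± 26.2 RPKM after crush and 215 ± 17.9 RPKM after sham (SD, n = 3 each). Chrna6 and Chrnb3 together made up 33.1% ± 3.80 of that sum in HB9 crush, against 74.9% ± 3.39 in HB9 sham cells. Their share was 14.9% ± 1.75 in Opn4 crush, against 3.56% ± 3.29 in Opn4 sham cells. The shares did not overlap between crush and sham in either class. Chrna3 held 54.8% ± 4.56 in HB9 crush and 18.0% ± 3.42 in HB9 sham cells, and 25.4% ± 8.45 in Opn4 crush and 9.69% ± 2.61 in Opn4 sham cells. Chrna4 and Chrnb2 held 29.2% and 29.9% in Opn4 crush cells and 34.3% and 48.3% in Opn4 sham cells. In HB9 cells they held 1.35% and 6.48% after crush and 0.488% and 4.05% after sham. Without Chrna6 and Chrnb3, the sum of the other 7 genes was 253 ± 16.6 RPKM in HB9 crush and 377 ± 85 RPKM in HB9 sham cells.

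The order of levels changed with these shares. In HB9 crush cells it ran Chrna3, Chrnb3, Chrna6, Chrnb2, Chrna7, Chrna4, Chrna5, Chrnb4, Chrna2, and the libraries overlapped between Chrnb2 and Chrna7, Chrna7 and Chrna4, and Chrna5 and Chrnb4. In HB9 sham cells it ran Chrna6, Chrnb3, Chrna3, Chrnb2, Chrna7, Chrna4, Chrnb4, Chrna5, Chrna2, with overlaps between Chrnb3 and Chrna3 and between each neighbouring pair from Chrna4 to Chrna2. In Opn4 crush cells Chrnb2, Chrna4 and Chrna3 led and overlapped, followed by Chrnb3 and Chrna6, with the other 4 genes at means under 1 RPKM. In Opn4 sham cells Chrnb2, Chrna4 and Chrna3 followed each other without overlap, and Chrna7, Chrnb3, Chrna6 and Chrna2 overlapped their neighbours below them.

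**Figure D4:**
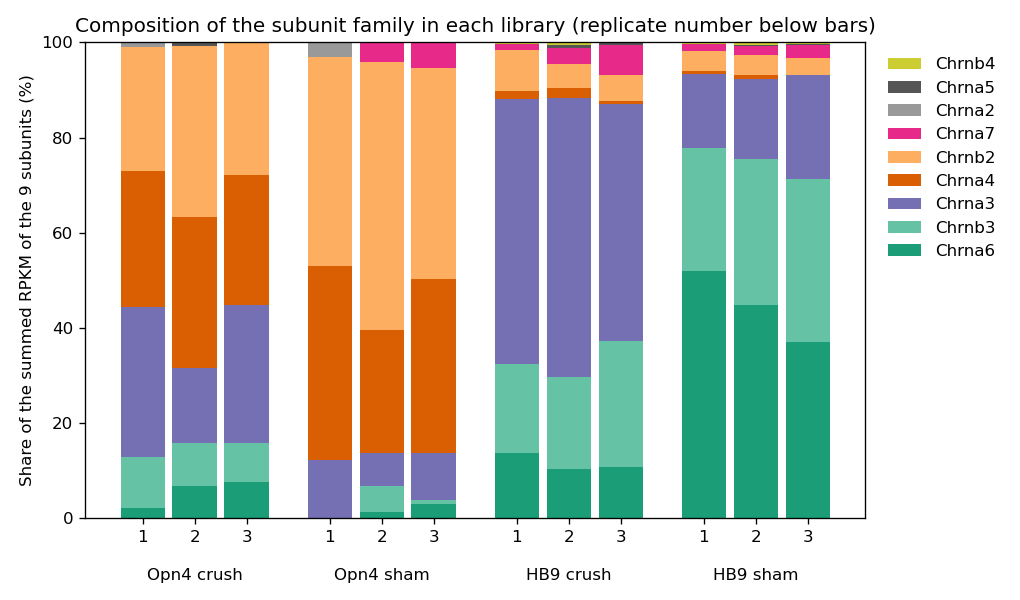
Share of each subunit in the summed RPKM of the 9 subunits (%), as a stacked bar per library. Chrna6 and Chrnb3 fill 71.2% to 77.9% of the HB9 sham bars and 29.7% to 37.2% of the HB9 crush bars, and Chrna4 and Chrnb2 lead in the Opn4 sham bars.

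The genes lie at 6 places in the genome (mm10, positions as deposited). Chrnb3 (ENSMUSG00000031492, chr8:27368711-27399729, plus strand) and Chrna6 (ENSMUSG00000031491, chr8:27403214-27413944, minus strand) face each other with their 3′ ends across 3485 bp. Chrna5 (chr9:54980880-55007779, plus strand), Chrna3 (chr9:55011343-55026559, minus) and Chrnb4 (chr9:55028156-55048544, minus) follow each other with gaps of 3564 and 1597 bp. Chrna4 (chr2:181018380-181043546, minus), Chrnb2 (chr3:89753448-89764632, minus), Chrna7 (chr7:63098692-63212526, minus) and Chrna2 (chr14:66140960-66152948, plus) stand alone. In GENCODE M21, Chrnb2 overlaps Adar and Chrnb4 overlaps the antisense gene Gm47877 on opposite strands, and Chrna7 overlaps Gm44741 on the same strand. Whether counting used the strand is not given in the sources used here, so reads of these overlaps cannot be told apart. Adar, an RNA-editing enzyme, had a log2 change of -0.12 in HB9 cells after crush (SE 0.22, adjusted p = 0.855).

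Among all other genes past the filter, those with the pattern nearest to a subunit over the 12 libraries were found by the mean absolute difference of gene-centred log2(RPKM + 1) values. The 2 members of the α6 and β3 pair lay 0.81 apart. Nearest to Chrna6 were Mmp9, a matrix metalloproteinase (0.53), Mnx1 (0.96) and Vamp1, a synaptic vesicle protein (0.98). Mmp9 averaged 3.68 RPKM in Opn4 crush, 0.329 in Opn4 sham, 13.3 in HB9 crush and 123 in HB9 sham cells. Nearest to Chrnb3 were Rxrg, a retinoid receptor (0.81), Syndig1l (0.83) and Tmem163 (0.83). Cyp46a1, the cholesterol 24-hydroxylase of neurons, was nearest to Chrna3 (0.25), with Tox3 (0.39) and Ptgir (0.44) after it. Nearest to Chrna4 were Gm11626 (0.33), the potassium channel subunit gene Kcns3 (0.45) and Fgf18 (0.46). Chrnb2 was nearest to Spock2 (0.24), the thyroid hormone receptor Thra (0.24) and the adrenergic receptor Adra2c (0.25). Chrna7 was nearest to 1500009L16Rik (0.55), Stk32c (0.58) and C330018D20Rik (0.64), and Chrnb4 to Gm26783, the sodium channel gene Scn8a and Lynx1 (0.30 each).

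Lynx1 encodes a membrane-anchored protein of the Ly6 family that binds nicotinic receptors and damps their response. It had 129, 97.1 and 85.4 RPKM in HB9 crush libraries, against 246, 261 and 278 RPKM in HB9 sham libraries, and fell by 1.34 on the log2 scale (SE 0.21, limma adjusted p = 0.00162). In Opn4 cells it had 36.3, 54.2 and 47.0 RPKM after crush and 46.3, 56.0 and 44.2 RPKM after sham, with a log2 change of -0.10 (SE 0.21, adjusted p = 0.869). The difference in crush effect between classes missed the threshold (1.24, SE 0.29, adjusted p = 0.0721). Lynx1 was the only 1 of 6 tested Ly6-family modulators to pass the crush test in HB9 cells, where 6.42% of all genes passed, and none passed in Opn4 cells, where 1.11% did. Between the classes after crush 4 of the 6 passed, against 12.7% of all genes, and Opn4 cells were lower in Lypd6b (-3.87, SE 0.56, adjusted p = 0.000728) and Lynx1 (-1.16, SE 0.21, adjusted p = 0.00287) and higher in Ly6h (2.38, SE 0.42, adjusted p = 0.00269) and Ly6e (1.65, SE 0.26, adjusted p = 0.00121).

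Of 10 tested genes for receptor assembly and trafficking, 1 rose and 1 fell in HB9 cells, where 3.84% of all genes rose and 2.57% fell. In Opn4 cells 1 of the 10 fell, where 0.421% of all genes did. Hspa5, the endoplasmic reticulum chaperone BiP, which folds many membrane proteins, had 677, 611 and 628 RPKM in HB9 crush libraries, against 151, 258 and 211 RPKM in HB9 sham libraries. It rose by 1.66 on the log2 scale (SE 0.17, limma adjusted p = 9.02e-05). The difference in crush effect, Opn4 minus HB9, was -1.51 (SE 0.24, adjusted p = 0.0135). Vsnl1, a calcium sensor known to promote surface delivery of α4β2 receptors, fell in both classes, by 1.34 in Opn4 cells (SE 0.28, adjusted p = 0.0413) and by 1.88 in HB9 cells (SE 0.28, adjusted p = 0.00141). After crush it was lower in Opn4 than in HB9 cells (-1.45, SE 0.28, adjusted p = 0.00508), and Ywhah (0.60, SE 0.12, adjusted p = 0.00725) and Calr (0.62, SE 0.19, adjusted p = 0.0472), a 14-3-3 protein and a calcium-binding chaperone, were higher. The α7 chaperones Ric3 and Tmem35, also called NACHO, did not pass in HB9 cells, with log2 changes of -0.26 (SE 0.25, adjusted p = 0.665) and -1.13 (SE 0.34, adjusted p = 0.0721).

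**Figure D5:**
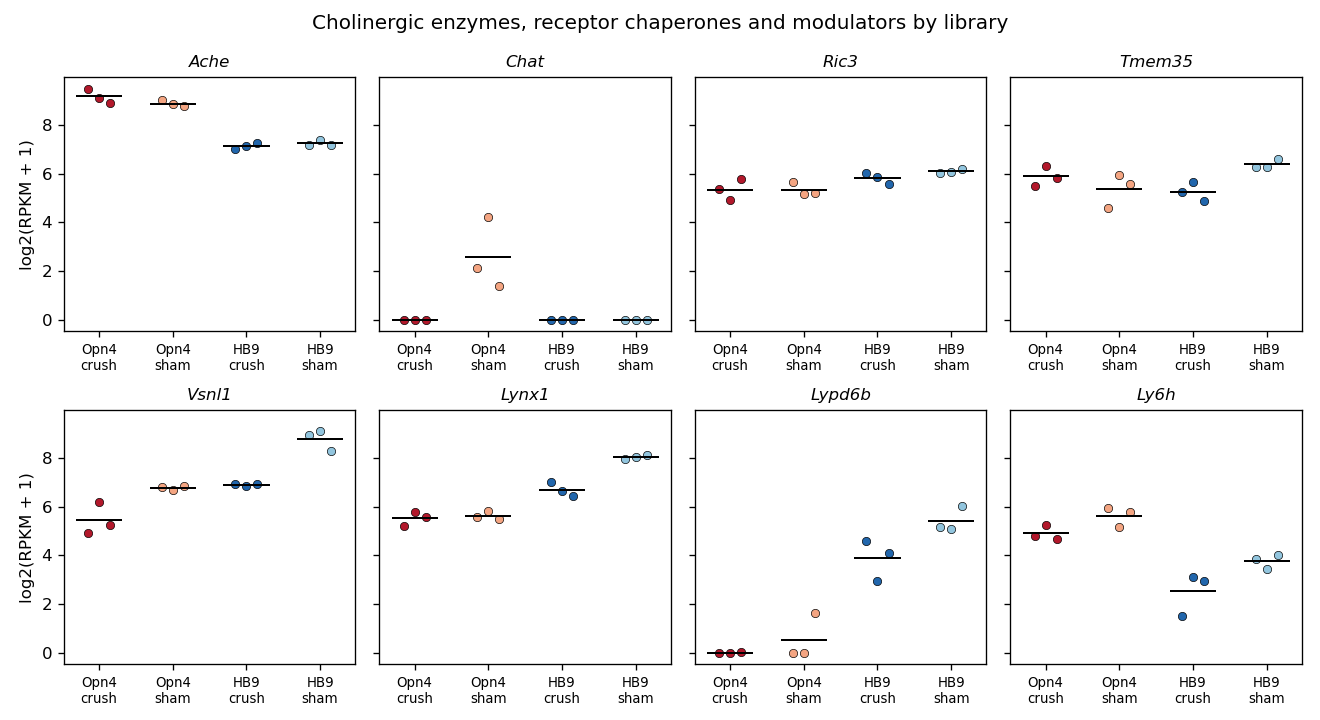
RPKM of 8 cholinergic enzymes, receptor chaperones and Ly6-family modulators in each library, as log2(RPKM + 1), with a point per library and a bar at the group mean. Lynx1 and Vsnl1 lie lower in HB9 crush than in HB9 sham libraries without overlap, and Ache lies higher in the 6 Opn4 libraries than in the 6 HB9 libraries.

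Of 5 genes for acetylcholine synthesis, transport and breakdown past the filter, Chat is set aside below. None of the others passed the crush test in either class by limma, where 1.11% of all genes passed in Opn4 cells and 6.42% in HB9 cells. Ache, the acetylcholine-degrading enzyme, had 711, 547 and 479 RPKM in Opn4 crush libraries, against 126, 139 and 153 RPKM in HB9 crush libraries, and was higher in Opn4 cells by 2.03 on the log2 scale (SE 0.16, limma adjusted p = 8.44e-06). Chat, the enzyme that makes acetylcholine and a marker of starburst amacrine cells, was listed at 0 in all 9 libraries outside the Opn4 sham group, where it had 3.31, 17.5 and 1.59 RPKM. It passed the filter on low values through that group alone, so no test of it is given. The 4 starburst markers in the table summed to at most 32.2 RPKM in any library. None of the 5 muscarinic receptor genes passed in any comparison by limma. Of all genes, 1.11% passed in the crush effect in Opn4 cells and 6.42% in that in HB9 cells. Between classes after crush 12.7% passed, and 0.816% did in the difference in crush effect. Chrm5 came nearest, between classes after crush (-1.75, SE 0.54, limma adjusted p = 0.0501). Of 7 other nicotinic subunit genes, those of muscle and hair cell receptors, Chrnb1 alone was tested, and after crush it was lower in Opn4 than in HB9 cells (-2.37, SE 0.52, adjusted p = 0.00997).

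Some markers of the cell classes, of ganglion cells and of other cells moved beside the fall of Chrna6, Chrnb3 and Chrnb2 in HB9 cells. The 10 ganglion cell markers summed to 5141 to 5818 RPKM in HB9 crush and 8500 to 9540 RPKM in HB9 sham libraries. Nefl was the largest part of these sums, at means of 2176 and 3526 RPKM, and did not pass (-0.70, SE 0.20, limma adjusted p = 0.0548). On the log2 scale 3 of the 10 fell, where 2.57% of all genes did. They were Rbpms by 1.22 (SE 0.16, limma adjusted p = 0.000599), Sncg by 0.94 (SE 0.19, adjusted p = 0.0082) and Nefm by 0.75 (SE 0.19, adjusted p = 0.0298). Slc17a6, the vesicular glutamate transporter of these cells, averaged 870 ± 90.5 RPKM after crush and 862 ± 139 RPKM after sham (SD, n = 3 each). The 6 ipRGC markers summed to 282 to 359 RPKM in HB9 crush and 38.9 to 67.7 RPKM in HB9 sham libraries. Most of these sums was Adcyap1, at means of 292 and 42.1 RPKM. Tbx20 and Trpc7 stayed near 0, at means of 0.00515 and 0.116 RPKM after crush and 0.012 and 0.133 RPKM after sham. Adcyap1, the neuropeptide PACAP, rose by 2.77 (SE 0.23, adjusted p = 2.07e-05) and Eomes, a transcription factor, by 2.32 (SE 0.32, adjusted p = 0.000837), while Opn4 itself did not pass (1.12, SE 0.90, adjusted p = 0.588). The 6 ooDSGC markers summed to 1475 to 6522 RPKM in HB9 crush and 4928 to 6258 RPKM in HB9 sham libraries. Cartpt made up most of these sums, at 4553 ± 2772 RPKM after crush and 5383 ± 608 RPKM after sham (SD). The median log2 change of the list was -0.83, and Mnx1 was the gene of that list to fall. The 7 amacrine markers summed to 60.1 to 261 RPKM in HB9 crush and 13.4 to 92.2 RPKM in HB9 sham libraries. The 8 Müller glia and astrocyte markers summed to 52.4 to 82.8 RPKM in HB9 crush and 13.2 to 20.2 RPKM in HB9 sham libraries. Of 7 amacrine genes tested 1 rose, Slc6a9 (3.60, SE 0.76, limma adjusted p = 0.0123). Of 4 glial genes tested 1 rose, Vim (3.32, SE 0.73, adjusted p = 0.016). Among all genes tested 3.84% rose in this comparison. The glial markers Aqp4, Gfap, Kcnj10 and Slc1a3 had means of at most 0.0981 RPKM in either HB9 group and were not tested. The 8 bipolar markers summed to 22.2 to 77.5 RPKM in HB9 crush and 57.9 to 80.6 RPKM in HB9 sham libraries, with a median log2 change of -0.69. None of the 8 bipolar, 7 cone or 14 rod markers passed by limma in this comparison, where 6.42% of all genes did. The 8 microglial markers summed to 5.20 to 5.47 RPKM in HB9 crush and 3.04 to 3.93 RPKM in HB9 sham libraries, mostly as Csf1r, at means of 5.13 and 3.52 RPKM in these groups, while C1qb, C1qc and Tmem119 were listed at 0 in all 12 libraries. The part of these other cells in the results was not tested.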

How the data were processed

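Gene-level RPKM values, 1 per gene and library, were deposited by the authors for 12 libraries of 30 picked cells. TopHat2 2.0.11 and Bowtie, the genome build mm10 and edgeR 3.14.0 are listed in the submitters' processing notes, without their roles. The counting step, its strand setting and the annotation behind gene lengths are not given in the sources used here. RPKM values of short genes were whole multiples of 1 read (100% within 0.01 read), which gave the scaling totals. Recovered reads in genes came to 226.7% to 244.2% of those totals for a reason the files do not state, and were used for depth and in 1 alternative only. Behind the members they ran from 0 to 53551 reads per library, and amplified reads are not independent molecules.

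Genes with at least 1 RPKM in at least 3 of 12 libraries (18269, with 8 of the 9 subunits) were tested as log2(RPKM + 1), a scale that understates changes of low genes. All libraries entered 1 limma 3.58.1 fit (R 4.3.3, 4 group means, eBayes with trend). Tests were two-sided, adjusted over all genes by Benjamini-Hochberg, with a threshold of 0.05. Nothing in the labels says whether libraries of a group share animals, so p-values measure the spread between these libraries.

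The members and gene lists were chosen with earlier results of these data known. All 9 members are named. Of the listed partner genes, those past the threshold in a crush effect or between classes after crush (at most 3 per list and comparison), and Chat, Ache, Ric3, Tmem35 and Lynx1 in any case, are named. Neighbours were taken within 50000 bp, and that result is in part not reported here. The 3 nearest patterns were taken for members whose group means span over 2 (log2). Alternatives were another pseudocount, other filters, quantile normalization, library weights, a rod covariate, a replicate block, fits of 6 libraries, limma voom and leaving out libraries. The analysis code was tested on simulated data.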

Additional observations from a re-analysis of the deposited data

Results flagged for a closer look

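For Chrna6 the crush effects in the 2 cell classes had opposite signs. Opn4 minus HB9, the difference came to 5.60 on the log2 scale (SE 0.80), with a log2 change of 1.72 in Opn4 cells and -3.88 in HB9 cells. The change in Opn4 cells did not pass the threshold (limma adjusted p = 0.185), and the Opn4 crush and sham libraries overlapped.

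For Chrnb3 the difference came to 4.92 (SE 0.89), with a log2 change of 2.46 in Opn4 cells and -2.46 in HB9 cells. The change in Opn4 cells did not pass here either (limma adjusted p = 0.0864). The differences of 5.60 and 4.92 contain the class difference after sham for which the pair was known. The limma test that drew attention to them is therefore not independent support.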

How the results depend on the processing

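The number of genes past the threshold was 203 for the crush effect in Opn4 cells (148 to 224 without 1 library), and it was 87 with library weights and 13 in a fit of the 6 Opn4 libraries. For the crush effect in HB9 cells it was 1172 (645 to 777 without 1 library), with 3025 under library weights and 1939 in a fit of the 6 HB9 libraries. Between classes after crush it was 2325 (1356 to 2201 without 1 library), and 941 with the rod covariate. For the difference in crush effect it was 149 (61 to 156 without 1 library), 90 at a pseudocount of 0.1 and 98 with the replicate block. Same-numbered libraries did not deviate together (18 correlations from -0.02 to 0.08, 0 over 0.1), so the numbers were not taken as pairs. Among members the block ended the call of Chrnb3 after crush (adjusted p = 0.0559) and changed no other.

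Of the alternatives tried on single members, 474 kept direction and call, 42 lost the call, 7 gained one and 13 changed direction. The reversals were all in Chrna4 and Chrna5 and none was near the threshold. For Chrna4 in HB9 cells the crush effect was -0.14 with quantile normalization, -0.31 with the rod covariate and -0.23 with library weights, and it ran from -1 to 0.58 without 1 library, below 0 without HB9 sham replicate 3 (-1), HB9 crush replicate 2 (-0.15) or HB9 crush replicate 1 (-0.11). Its difference in crush effect ran from -0.90 to 0.68 without 1 library, above 0 only without HB9 sham replicate 3. For Chrna5 the crush effect in Opn4 cells ran from 0 (without Opn4 crush replicate 2) to 0.58 without 1 library, and was 2.37 with limma voom. In HB9 cells it was 0.19 with the rod covariate and ran from -0.93 to 0.43 without 1 library, above 0 without HB9 crush replicate 1 (0.32) or HB9 sham replicate 3 (0.43). The Chrna5 class difference after crush was 0.41 with the rod covariate. The Chrna5 difference in crush effect ran from -0.05 (without HB9 sham replicate 3) to 1.31 without 1 library, and was 2.6 with limma voom. The causes were not tested. At 0 to 304 reads for Chrna5 and 8 to 778 for Chrnb4, changes in these genes were measured with little depth.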
